A study of Mus musculus with 10 samples.

Results

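Peaks of N6-methyladenosine (m6A) that the deposited lists place in the 5′ untranslated region (5′ UTR) numbered 225 of 2824 in DMSO Pre, 537 of 5128 in DMSO MCE, 250 of 2944 for DMSO Diff and 321 of 3069 for Rhein MCE. They were taken as every peak whose listed annotation was 5′ UTR, 1333 in these 4 lists. Members that overlapped on the same chromosome and strand were joined, which gave 878 regions. No measured value entered the choice.

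The 5′ UTR runs from the cap of a messenger RNA to the start codon and is read through by the small ribosomal subunit when translation begins. A complex around METTL3 and METTL14 adds m6A to nascent transcripts, mostly in long internal exons and near the stop codon, and the demethylases FTO and ALKBH5 can remove it. In 5′ UTRs the mark is known for initiation of translation without the cap-binding protein, for instance on heat shock transcripts, and m6A antibodies also recognise m6Am, the mark that PCIF1 puts on a cap-adjacent adenosine and that FTO can remove as well.

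The peaks come from methylated RNA immunoprecipitation and sequencing (MeRIP-seq) of 3T3-L1 cells, a line of mouse fibroblasts able to become fat cells in culture. The assay sequences RNA fragments bound by an anti-m6A antibody (the IP) and, beside them, the fragments before binding (the input). Cells given the solvent DMSO were taken at day 0 as growth-arrested preadipocytes (DMSO Pre), at day 3 of mitotic clonal expansion, a round of renewed division (DMSO MCE), and at day 10, labelled mature adipocytes (DMSO Diff). Rhein, an anthraquinone from plants and known as an FTO inhibitor, was given at 20 µM over days 0 to 3, and those cells were collected at clonal expansion (Rhein MCE) and at differentiation (Rhein Diff). The cells of every later collection had also been given the differentiation cocktail.

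Each of the 5 conditions had 1 IP and 1 input, 10 libraries in all, so a spread between replicates is lacking for every difference below. Read numbers are not in the lists, which leaves library depth unknown. Shares carry 95% Wilson intervals and medians 95% order-statistic intervals, and both cover counting error over peaks only. The Rhein Diff list held 320 peaks of this class, 319 with the same span as in Rhein MCE, so the pair cannot be taken as separate calls. Rhein is represented here by the Rhein MCE list, and which of the collections its peaks stem from was not established. Peaks do not measure RNA levels. Of 7 preadipocyte and fibroblast markers, 4 had a peak of any class in DMSO Pre, 4 in DMSO MCE, 3 for DMSO Diff and 1 for Rhein MCE, whereas none of 6 adipocyte markers (Pparg, Fabp4, Adipoq, Plin1, Lpl and Cd36) had a peak in any list, DMSO Diff included.

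The sequences below show what the regions at the centre of the results look like. Each is 30 bases of the transcript strand around the GGAC nearest the midpoint of the peak, written as DNA from the RefSeq copy of GRCm38 (mm10), with GGAC, the core of the m6A motif, in capitals. The first 5 belong to regions listed in all 4 lists, the next 4 to regions whose score stood high under rhein, Fosl2 and Dusp1 to immediate-early genes, Isg15 to a high-scoring region of DMSO Pre alone, and Otx2os1 to an antisense transcript.
St3gal2 (chr8:110957396-110957425, plus strand): agagggctgagatGGACtgacctctgcctt
Stk11 (chr10:80116586-80116615, plus strand): ccgaaggggacgaGGACaaagagtgggcca
Nfe2l1 (chr11:96827953-96827982, minus strand): gccctgagcgcctGGACtgtgttaggaacg
Fgfr1 (chr8:25518880-25518909, plus strand): cgctgcgtgcagaGGACccgggctgcgcag
Prrx1 (chr1:163313373-163313402, minus strand): gcggagggaagggGGACcgccacccttctg
H1f0 (chr15:79028551-79028580, plus strand): acccgcgccgggaGGACaggagccacgcgt
Gas1 (chr13:60176917-60176946, minus strand): catggatggatgaGGACgcccatgccagaa
Junb (chr8:84978529-84978558, minus strand): ctccagctcccgaGGACgcgcgaccggaca
Slc35e3 (chr10:117746303-117746332, minus strand): cctgtctccggccGGACcgtggagcgggcg
Fosl2 (chr5:32135900-32135929, plus strand): cggcgctcggcagGGACagagagagagaaa
Dusp1 (chr17:26508381-26508410, minus strand): acttagggccacaGGACaccgcacaagatc
Isg15 (chr4:156200717-156200746, minus strand): ccttaattccaggGGACctagagctagagc
Otx2os1 (chr14:48673761-48673790, plus strand): ggcagcgctgaagGGACagcgacactcggg
Counted from 0 at the first base of the transcript, the cores lay at base 836 in St3gal2, 797 in Stk11, 405 in Nfe2l1, 280 in Prrx1, 115 in H1f0, 433 in Gas1, 174 in Junb and 47 in Slc35e3, all inside the annotated 5′ UTR. Those of Isg15 and Fosl2 lay there as well, at bases 86 and 113, and so did that of Dusp1. Otx2os1 is noncoding, and its core was at base 109.

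The listed label was first set against the GENCODE M21 annotation with strand taken into account. An annotated 5′ UTR lay under the peak on its own strand for 201 of 225 members in DMSO Pre (89.3%, interval 84.6 to 92.7), 509 of 537 in DMSO MCE (94.8%, 92.6 to 96.4), 230 of 250 for DMSO Diff (92.0%, 87.97 to 94.8) and 288 of 321 for Rhein MCE (89.7%, 85.9 to 92.6). Only the opposite strand had one for 15, 20, 11 and 21 members in the same order, so these lay antisense to the 5′ UTR that named them. For the rest, 9, 8, 9 and 12 members, neither strand had one under the exonic part of the peak. The label thus held for about 9 in 10 members, and the listed gene symbol was that of the gene holding the peak for 88.9%, 88.8%, 89.6% and 85.9% of them.

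A peak listed in the 5′ UTR often reached into the coding sequence (CDS). Of the members on coding transcripts, 67 of 183 held the boundary between 5′ UTR and start codon in DMSO Pre (36.6%, 29.97 to 43.8), 169 of 439 in DMSO MCE (38.5%, 34.1 to 43.1), 80 of 200 for DMSO Diff (40.0%, 33.5 to 46.9) and 104 of 264 for Rhein MCE (39.4%, 33.7 to 45.4). The midpoint was in the CDS for 52, 119, 60 and 72 of them. These intervals overlapped across the lists.

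The number of members was highest in the longest list, DMSO MCE. Their share of all peaks was 7.97% in DMSO Pre (7.02 to 9.02), 10.5% in DMSO MCE (9.66 to 11.3), 8.49% for DMSO Diff (7.54 to 9.55) and 10.5% for Rhein MCE (9.43 to 11.6). The DMSO MCE interval lay above those of DMSO Pre and DMSO Diff, and that of Rhein MCE overlapped DMSO MCE and DMSO Diff. When only peaks with the midpoint in the 5′ UTR of a coding transcript were counted, DMSO MCE (7.28%, 6.55 to 8.08) overlapped DMSO Diff (5.995%, 5.11 to 7.02). Among peaks above a score of 9.97 the share was 18.4% in Rhein MCE and 13.3% in DMSO MCE. Members lay in 191 of 1762 genes with a peak in DMSO Pre, 477 of 3014 in DMSO MCE, 218 of 1756 for DMSO Diff and 276 of 1890 for Rhein MCE. Of these genes, from 49.6% in Rhein MCE to 56.4% in DMSO MCE, also held a peak listed in another part of the transcript.

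Members lay near, but mostly not at, the start of the transcript. The median exonic length was 125 bases in each of the 4 lists, with a range from 50 to 1075. Exon peaks had a median of 100 bases and 3′ UTR peaks of 125 to 150. On the genome, 20.0%, 16.2%, 16.0% and 17.1% of members spanned over 1000 bases in DMSO Pre, DMSO MCE, DMSO Diff and Rhein MCE. The near edge lay a median of 250 exonic bases from the transcript start in DMSO Pre (interval from 208), 175 in DMSO MCE (143 to 192), 190.5 for DMSO Diff (150 to 247) and 198.5 for Rhein MCE (152 to 241). The DMSO MCE interval ended below the lower bound of DMSO Pre. These distances depend on the transcript chosen. On the transcript named in the list they were 117, 75.5, 106.5 and 110 bases, and there the intervals of DMSO Pre (83 to 174) and DMSO MCE (59 to 102) overlapped, as they did for the nearest annotated start (117 to 246 and 78 to 125).

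**Figure D1:**
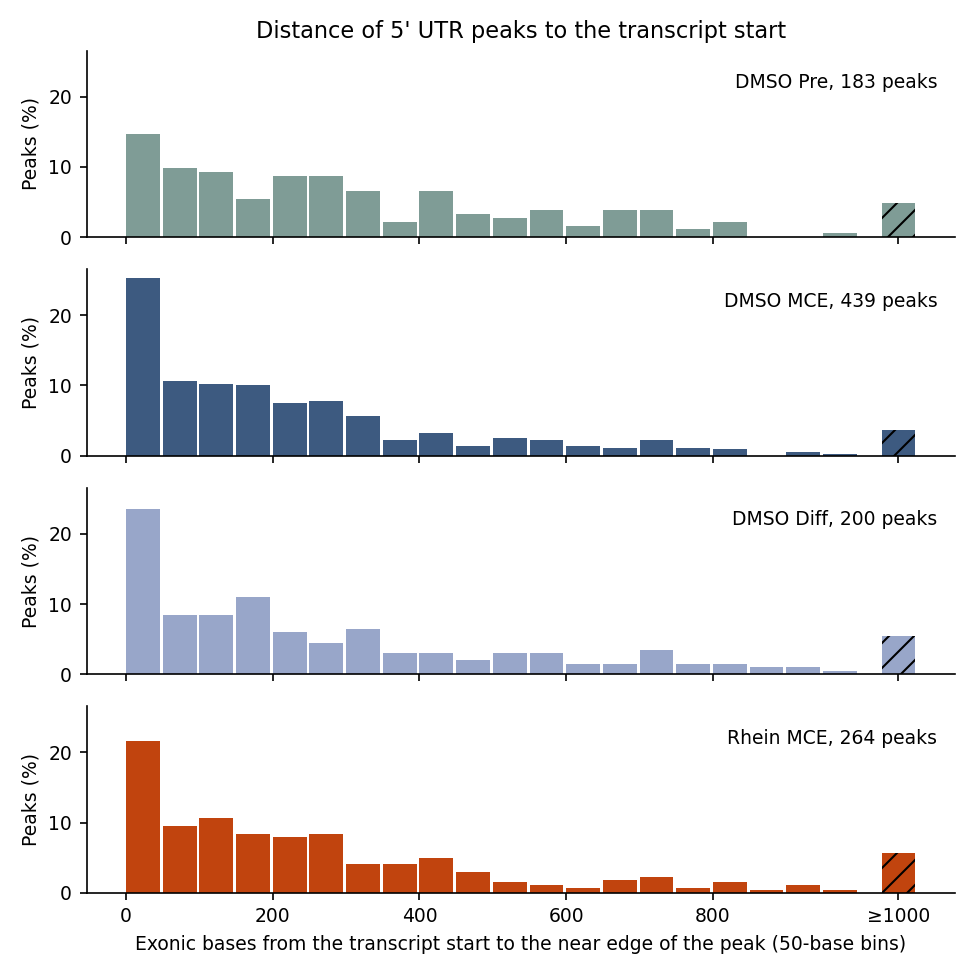
Share of 5′ UTR peaks (vertical axis, percent of the peaks on coding transcripts) by exonic distance from the transcript start to the near edge of the peak in 50-base bins (horizontal axis), 1 panel per list, with all distances of 1000 bases or more in the hatched bar. The first bin is the highest in every panel, and 25.7% of the DMSO Pre and 37.1% of the DMSO MCE peaks begin within 100 bases of the start.

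Peaks that began at the very first base were few. They numbered 10 of 183 in DMSO Pre (5.46%), 48 of 439 in DMSO MCE (10.9%), 15 of 200 for DMSO Diff and 26 of 264 for Rhein MCE (9.85%). Of members with the near edge within 50 bases of the start, the transcript began with A, the base that m6Am requires, in 10 of 29 in DMSO Pre (34.5%, 19.9 to 52.7), 27 of 121 in DMSO MCE (22.3%, 15.8 to 30.5), 17 of 49 for DMSO Diff (34.7%, 22.9 to 48.7) and 17 of 60 for Rhein MCE (28.3%, 18.5 to 40.8). The share of A among starts of coding genes with a peak was 24.01%, which lay within each of these intervals. The annotated start need not be the start used in these cells.

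The sequence under the members was rich in G and C. The median GC content of a 100-base window at the midpoint was 58.5% in DMSO Pre, 67% in DMSO MCE, 61% for DMSO Diff and 65% for Rhein MCE. Peaks listed in exons or the 3′ UTR had medians between 48.0% and 53.0% in these lists. In the 2866 coding genes with a peak and a long enough 5′ UTR, its middle 100 bases had a median of 68.0%. The intervals of the member median in DMSO Pre (56 to 62) and DMSO Diff (58 to 63) lay below that value. Those of DMSO MCE (65 to 69) and Rhein MCE (63 to 68) held it.

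The motif core GGAC, searched on the transcript strand, occurred in 54.8% of member windows in DMSO Pre (48.0 to 61.4), 55.7% in DMSO MCE (51.2 to 60.0), 45.3% for DMSO Diff (38.9 to 51.8) and 56.6% for Rhein MCE (50.9 to 62.1). Of windows of the same length from the middle of the 5′ UTR, 39.8% held it among 14820 coding genes and 42.0% (40.2 to 43.9) among the 2866 with a peak. The member share was above the latter in DMSO Pre, DMSO MCE and Rhein MCE, with intervals that did not overlap, and in DMSO Diff the intervals overlapped. These reference windows lie in the 5′ UTR, whereas member windows can lie in the CDS or on a noncoding transcript. Windows of exon and 3′ UTR peaks held GGAC in 42.1% to 51.1%. The wider DRACH consensus, which contains part of the GGAC matches, occurred in 74.0% to 81.3% of member windows and in 68.4% of windows of the genes with a peak and 76.6% of those of all coding genes, against 88.0% to 92.7% of the windows of exon and 3′ UTR peaks. An ATG upstream of the CDS lay inside the peak for 30.6%, 24.4%, 29.5% and 27.7% of members on coding transcripts, in the order of the lists above.

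The score, the only value deposited for a peak, is given here as a percentile within its list with 100 as the highest. The median member stood at percentile 33.8 in DMSO Pre (29.4 to 42.7), 59.4 in DMSO MCE (55.5 to 63.2), 40.0 for DMSO Diff (31.3 to 46.4) and 73.5 for Rhein MCE (67.1 to 81.4). The median score itself was 6.52, 7.605, 7.54 and 10.9. Members thus ranked below the middle of the list in DMSO Pre and DMSO Diff and above it in DMSO MCE and Rhein MCE, while 3′ UTR peaks had medians from 46.5 to 54.9 and exon peaks from 46.9 to 51.1.

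**Figure D2:**
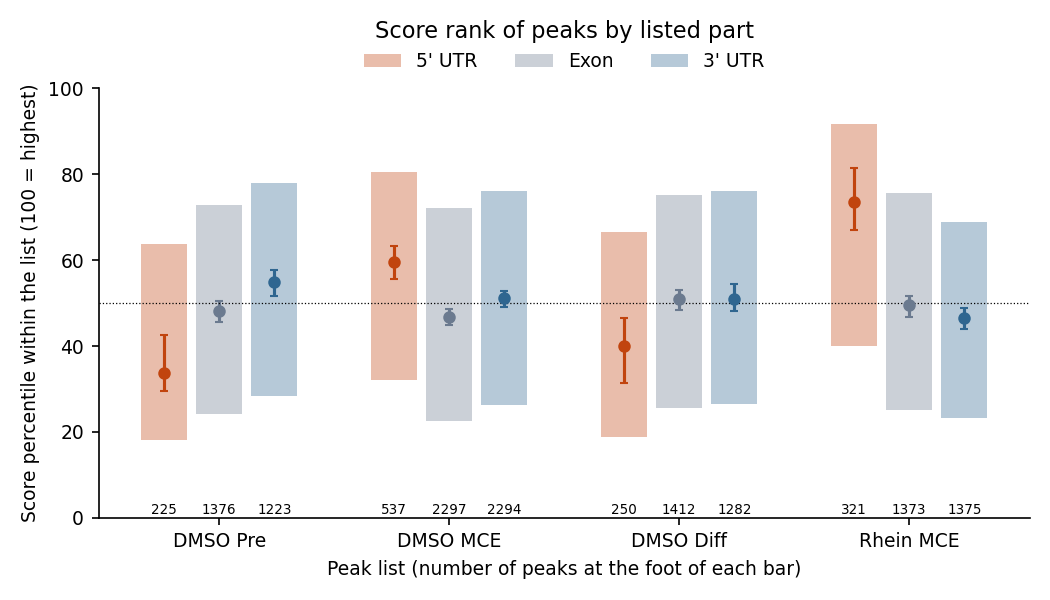
Score percentile within the list (vertical axis, 100 is the highest score) for peaks listed in the 5′ UTR, in other exons and in the 3′ UTR of each list, with bars from the lower to the upper quartile, points at the median and whiskers for its 95% interval. The 5′ UTR medians run from 33.8 in DMSO Pre to 73.5 in Rhein MCE, and those of the other parts stay between 46.5 and 54.9.

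Members were also most frequent at the top of the Rhein MCE list. Of the 100 highest-scoring peaks, members made up 5 in DMSO Pre (2.15% to 11.2%), 13 in DMSO MCE (7.76% to 20.98%), 5 for DMSO Diff and 31 for Rhein MCE (22.8% to 40.6%). Among the 500 highest they numbered 28, 69, 33 and 134. The Rhein MCE interval for the 100 highest lay above those of the 3 DMSO lists.

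Percentiles of overlapping peaks can be set side by side between lists. Raw scores, here and below, are quoted as listed and, with depth unknown, are no measure of the strength of the mark. Over the 190 Rhein MCE members that overlapped a DMSO MCE peak, the median percentile was 84.6 under rhein and 81.6 under DMSO, and the median difference was 0.25 (-2.37 to 3.11). Over the 770 shared 3′ UTR peaks the difference was -20.8 (-23.4 to -18.4), and over the 684 shared exon peaks it was -17.4 (-19.7 to -14.7). The interval for 5′ UTR peaks thus held 0, while the shared peaks of the other parts stood lower in the shorter Rhein MCE list. The member score was higher under rhein in 119 of the 190 pairs, with a median of 15.2 against 10.0.

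GC content moved with this result. In Rhein MCE, members with over 65% GC had a median percentile of 90.4 (142 peaks), those over 55% to 65% stood at 57.1 (76 peaks), and those of at most 45% at 47.5 (29 peaks). Exon peaks over 65% GC stood high as well, at 80.5 (161 peaks), whereas 3′ UTR peaks of that GC stood at 47.5 (41 peaks). In DMSO MCE all parts over 65% GC lay together, at 64.2, 62.9 and 62.7, and in DMSO Pre and DMSO Diff members of that GC stood at 32.6 and 40.0. Of the 100 highest peaks that could be placed on a transcript, 45 of 96 were over 65% GC in Rhein MCE, against 24 of 96 in DMSO MCE, 6 of 96 in DMSO Diff and 4 of 95 in DMSO Pre. GC content and treatment cannot be told apart with 1 IP and 1 input a condition, and the part of GC in the rank of the members was not tested.

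**Figure D3:**
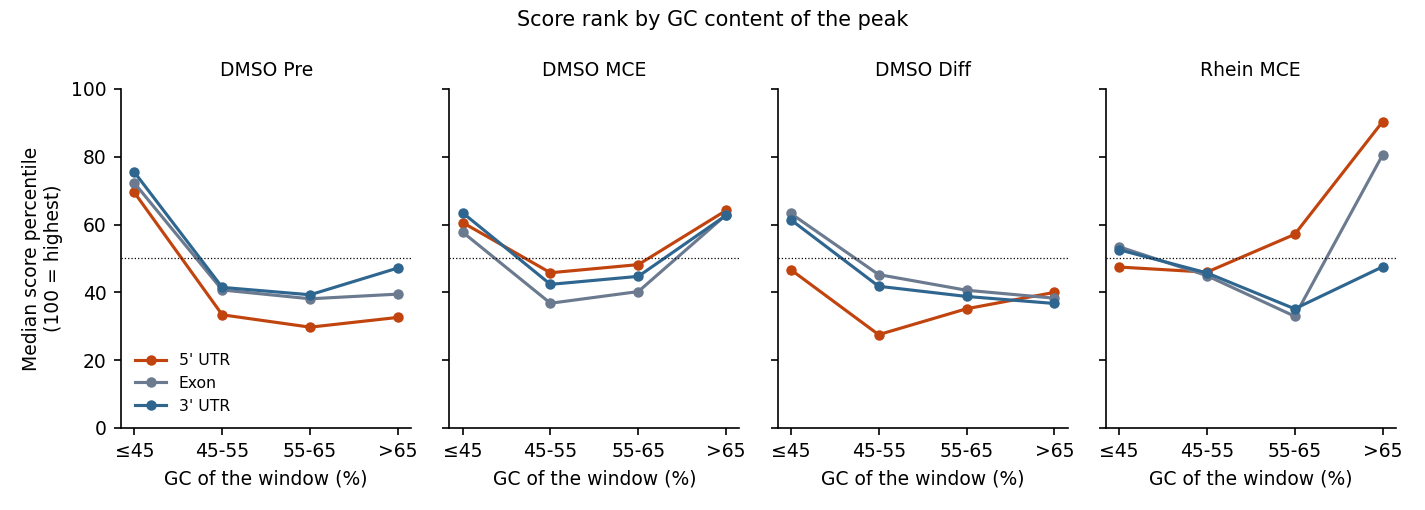
Median score percentile within the list (vertical axis) by GC content of the 100-base window around the peak midpoint (horizontal axis, 4 classes), with 1 panel per list and 1 line per listed part. In Rhein MCE the 5′ UTR line rises from 47.5 at most 45% GC to 90.4 over 65%, while the 3′ UTR line ends at 47.5, and in DMSO Pre the 5′ UTR line falls from 69.5 to 32.6.

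Position moved with it too. Rhein MCE peaks of any part that began within 100 bases of the transcript start had a median percentile of 86.2 (106 peaks), those beyond that and up to base 300 one of 67.1, and those beyond base 1000 and up to base 2000 one of 43.9. The corresponding values were 57.8, 50.6 and 48.5 in DMSO MCE. Within the class over 65% GC, Rhein MCE peaks within 300 bases of the start stood at 90.2 and those over 1000 bases from it at 55.1, so that high GC far from the start came with a lower rank than high GC near it.

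The members with the highest scores under rhein included genes of growth arrest, chromatin and early transcription. Gas1, a growth arrest-specific cell surface protein that acts in hedgehog signalling, had the highest member score in Rhein MCE, 279 at rank 2 of 3069. In that list its peak ran from the first base of the transcript to past the start codon, over 786 bases that hold 6 GGAC. In the DMSO lists the same 5′ UTR was split into 2 peaks each, with best scores of 15.0 in DMSO Pre, 36.0 in DMSO MCE and 20.3 in DMSO Diff.

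H1f0 encodes the linker histone H1.0, which accumulates in cells that leave the cycle. Its peak covered the first 150 bases of the transcript in DMSO MCE and Rhein MCE and the first 200 in DMSO Diff. The score was 38.4 in DMSO MCE (rank 77), 10.8 for DMSO Diff (rank 763) and 195 for Rhein MCE (rank 3), and DMSO Pre had no member there. The window was 78.0% GC in Rhein MCE. On the opposite strand the same place carried a further listed peak in these 3 lists, in the noncoding gene Gm49544, with scores of 36.9, 9.28 and 36.7.

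Igfbp4, a secreted binder of insulin-like growth factors whose peak is centred in the CDS, stood at score 161 in Rhein MCE (rank 5) and 43.1 in DMSO MCE (rank 63), with the best of its 2 members in DMSO Diff at 30.2. Gnas, the stimulatory G protein alpha subunit, had a score of 141 in Rhein MCE (rank 9), and its only DMSO member, in DMSO MCE, was another region with a score of 6.86. Junb, a subunit of the AP-1 transcription factor, had 136 in Rhein MCE (rank 11). Its region was 1 peak of 900 bases in DMSO MCE, with a score of 91.3 (rank 6), and was split into 2 under rhein. Slc35e3, a solute carrier, stood at rank 2160 in DMSO MCE, with a score of 7.52, and at rank 22 in Rhein MCE, with a score of 89.9, on an identical span of 100 bases that starts at the second base of the transcript.

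Several other regions had a raw score that was lower in DMSO MCE than in Rhein MCE, and both are given in that order. Raw scores are not scaled between lists. Over all 190 shared members the median percentile difference was 0.25. Eif3b, a subunit of initiation factor eIF3, had scores of 19.1 and 82.6. Cebpb, the transcription factor that opens the adipogenic programme, had a peak of 50 bases with a score of 7.95 in DMSO MCE and one of 200 bases with a score of 50.8 in Rhein MCE, which was 70.1 for the same span in Rhein Diff. Fbln2, the matrix protein fibulin-2, had 7.45 and 47.4, and Hnrnpa0, an RNA-binding protein, 36.9 and 59.8. Each of these peaks was over 60% GC, and without replicates none of the differences could be tested.

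In the DMSO lists other genes led. DMSO Pre was headed by a peak of 75 bases with a score of 735, the highest of any list, listed as Chsy1 but lying on the opposite strand in the noncoding gene Gm26827, and no other list had a peak there. It was followed by Mmp2, a gelatinase of the matrix (59.5), Isg15, an interferon-induced ubiquitin-like protein (55.8), the sialyltransferase St3gal2 (29.3) and Bst2, an interferon-induced membrane protein (29.1). Isg15 and Bst2 had a member in DMSO Pre and in none of the other lists. In DMSO MCE the 5 highest were Junb, Otx2os1 (77.4), Spon2, a secreted matrix protein (55.1), Igfbp4 and Basp1 (42.2).

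In DMSO Diff the highest member was Otx2os1, a noncoding RNA on the strand opposite to Otx2, with a score of 72.9. After it came Arhgef17, a guanine nucleotide exchange factor (53.4), Vcan, the proteoglycan versican (46.7), Errfi1, an inhibitor of EGF receptor signalling (42.0), and Hnrnpul1, an RNA-binding protein (41.2). Arhgef17 had a score of 4.93 in DMSO Pre and at most 11.5 in Rhein MCE. The Vcan and Errfi1 members span introns, and that of Errfi1 could not be placed on a single transcript.

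Recurrence of DMSO Pre and DMSO Diff members was near that of all peaks in 5 of 6 comparisons. Of DMSO Pre members, 45.8% (39.4 to 52.3) overlapped a DMSO MCE peak by at least 1 base on the same strand, against 45.1% of all DMSO Pre peaks. A DMSO Diff peak lay under 35.6% of them (all peaks 38.5%) and a Rhein MCE peak under 35.6% (all peaks 36.5%). Of DMSO Diff members, 115 of 250 overlapped a DMSO MCE peak (46%, all peaks 46.1%), 39.2% a Rhein MCE peak (all peaks 40.3%) and 28.4% (23.2 to 34.3) a DMSO Pre peak (all peaks 36.3%). Only the last of these 6 shares had an interval that left out the value of all peaks.

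The members of the longer DMSO MCE list had lower shares than all peaks in the other DMSO lists. A DMSO Pre peak overlapped 19.4% of them (16.2 to 22.9, all peaks 25.0%), a DMSO Diff peak 21.04% (17.8 to 24.7, all peaks 26.2%) and a Rhein MCE peak 36.3% (32.4 to 40.5, all peaks 32.3%). Rhein MCE members gave the same pattern. A DMSO MCE peak overlapped 59.2% of them (53.7 to 64.4, all peaks 53.6%), a DMSO Pre peak 26.2% (21.7 to 31.2, all peaks 33.7%) and a DMSO Diff peak 32.1% (27.2 to 37.4, all peaks 37.9%). For DMSO MCE and Rhein MCE members, the shares in the DMSO Pre and DMSO Diff lists lay below those of all peaks, with intervals that left those values out. In the full lists, the share in each other's list was near that of all peaks. Its lower bounds, 32.4% and 53.7%, lay only just above 32.3% and 53.6%.

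Of the 878 regions, 611 had a member in 1 list, 157 in 2, 74 in 3 and 36 in all 4. DMSO MCE alone held 305, Rhein MCE alone 107, DMSO Diff alone 102 and DMSO Pre alone 97. DMSO MCE and Rhein MCE together, with neither other list, held 78 (8.88%), DMSO MCE with DMSO Diff held 20 (2.28%) and DMSO Pre with DMSO MCE also 20. Of 8660 regions joined in the same way from all peaks, these pairs held 5.76%, 2.86% and 3.11%. The single lists, in the order above, held 31.2%, 11.4%, 12.3% and 12.6% of those 8660 regions. The counts over the 878 regions rest on members alone, whereas those over the 8660 take peaks of any part, so the rules differ. Counting peaks of any listed part, 573 of the 878 regions were covered in 1 list only (65.3%). By that rule 46 of the 878 were covered in all 4 lists (5.24%), against 6.57% of the 8660.

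The 36 regions in all 4 lists differed in rank between lists. Their median percentile was 53.9 in DMSO Pre, 87.9 in DMSO MCE, 45.1 for DMSO Diff and 79.3 for Rhein MCE, and the best percentile was in DMSO MCE for 18, for Rhein MCE for 10, in DMSO Pre for 6 and for DMSO Diff for 2. The DMSO MCE percentile was above that of DMSO Pre in 30 and above that of DMSO Diff in 32 of the 36. Shared peaks of other parts also stood higher in the longer DMSO MCE list, which overlapping 3′ UTR peaks did in 60.7% of pairs with DMSO Pre and 68.4% with DMSO Diff, and exon peaks in 68.6% and 69.2%. The median shift was 26.97 percentile points from DMSO Pre and 26.6 from DMSO Diff for all shared DMSO MCE members, 9.76 and 15.0 for 3′ UTR peaks and 10.5 and 11.8 for exon peaks. List length and stage cannot be told apart in these ranks.

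**Figure D4:**
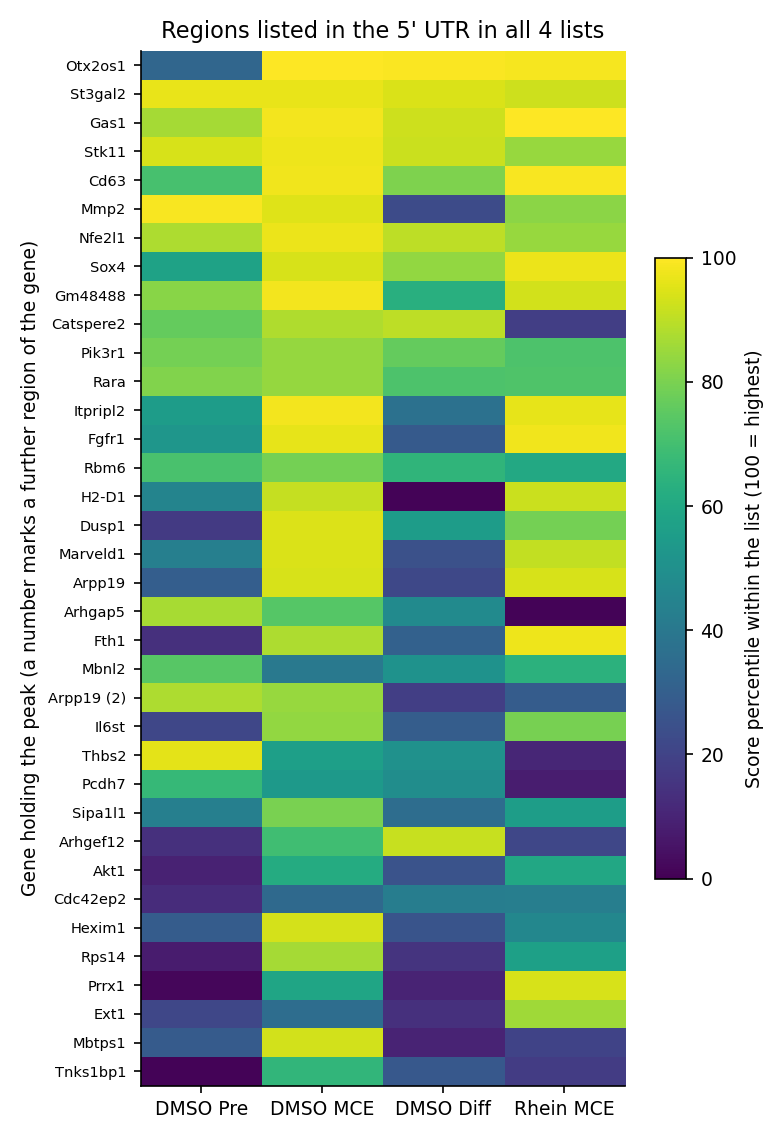
Score percentile within the list (colour, 100 is the highest score) of the 36 regions with a 5′ UTR member in each of the 4 lists (columns), named by the gene that holds the peak and ordered by median percentile. St3gal2 and Stk11 stay high throughout, whereas Fgfr1, Itpripl2 and Fth1 stand higher in DMSO MCE and Rhein MCE than in DMSO Pre and DMSO Diff.

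Several of the 12 with the best median percentile stayed in the upper part of every list. St3gal2 ranked 95 of 2824, 169 of 5128, 165 of 2944 and 238 of 3069 in DMSO Pre, DMSO MCE, DMSO Diff and Rhein MCE. Stk11, the kinase LKB1 that activates AMPK, ranked 174, 133, 231 and 479 in the same order, and its peak kept its start and lost 25 bases at the end under rhein. Nfe2l1, a transcription factor of proteasome genes, ranked 348, 149, 299 and 472. These 3 regions lay 279 bases or more from the transcript start and were 51% to 64% GC. Rara, the retinoic acid receptor alpha, stood at ranks 533, 813, 828 and 842. Pik3r1, the regulatory subunit of PI 3-kinase, ranked 592, 820, 698 and 852, with scores between 10.6 and 12.3. In percentiles each of these regions stood lower in Rhein MCE than in DMSO MCE. Stk11, for instance, went from 97.4 to 84.4 and Rara from 84.2 to 72.6.

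Scores of others among the 12 spread wider. Cd63, a tetraspanin of endosomes and secreted vesicles, had scores of 10.4, 31.2, 12.1 and 74.3. Sox4, a developmental transcription factor, had 8.60, 16.3, 13.1 and 45.5. Mmp2 went the other way, with 59.5 in DMSO Pre, 18.8 in DMSO MCE, 6.36 for DMSO Diff and 13.9 for Rhein MCE, although its DMSO Pre peak spans an intron and is longer than the others. Otx2os1 scored 6.47 in DMSO Pre and between 68.3 and 77.4 in the other 3 lists. The strand opposite Gas1, the noncoding gene Gm48488, was listed in all 4 lists too, with scores of 13.3, 33.8, 9.37 and 26.8. Catspere2, of the sperm calcium channel complex, lay between 6.29 and 17.3. Its peak is centred in the CDS, with no annotated 5′ UTR under its exonic part on either strand.

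Peaks on both strands of 1 place were more frequent among members than among all peaks. Another peak of the same list overlapped on the opposite strand for 11 of 225 members in DMSO Pre (4.89%, 2.75 to 8.54), 41 of 537 in DMSO MCE (7.64%, 5.68 to 10.2), 14 of 250 for DMSO Diff (5.60%, 3.36 to 9.18) and 29 of 321 for Rhein MCE (9.03%, 6.36 to 12.7). Over all peaks the shares were 2.30%, 3.69%, 3.09% and 4.14%. Whether the libraries kept the strand is not given in the sources used here, so the antisense members, Otx2os1, Gm48488, Gm49544 and Gm26827 among them, cannot be told apart from signal of the sense gene.

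Members found with rhein and under no DMSO peak of any part numbered 96 of 321 (29.9%, 25.2 to 35.1), against 32.1% of all Rhein MCE peaks. Their median percentile was 60.1, below the 81.5 of the 225 members that overlapped a DMSO peak. Highest among them were Cenpb, a centromere protein (score 70.7), a peak listed as Shc4 but lying on the opposite strand in Eid1, which encodes an inhibitor of histone acetylation (70.2), the ribosomal protein gene Rps20 (62.7), Klf5, a transcription factor of early adipogenesis (50.8), and a peak opposite to the phosphatase gene Ppp2ca (46.3). The Klf5 peak covered the first 125 bases of its transcript. Those of Cenpb and Eid1 were 75% and 84% GC, and they scored 33.9 and 19.6 on the same spans in Rhein Diff, so their place at the top rests on 1 of the rhein lists.

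Of 48 regions with a member in each of the 3 DMSO lists, 12 had no rhein peak (25.0%, 14.9 to 38.8), near the 23.2% of the 741 such regions over all peaks. By highest score the first 5 were Hist1h1d, a linker histone (29.4 in DMSO MCE), Tulp4 (23.1 in DMSO Pre), Gm38394, listed as Zbed6 (20.3 in DMSO Diff), Junos on the strand opposite to Jun (10.3 in DMSO MCE) and Slmap, a membrane-anchored protein (9.76 in DMSO Diff). Each stood lower in its other lists, Tulp4 for instance at 6.71 in DMSO MCE and 9.89 in DMSO Diff. Absence from a list says only that no peak was called there at a depth that is unknown.

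By gene, members lay in 740 of the 4188 genes with a peak in any of the 4 lists, or 17.7%. Against that background the shares of 22 lists of genes, grouped by function, are given as a description, since the genes of a list are not replicates and the lists were built in part from name patterns. Histones and immediate-early genes stood highest. Of 22 immediate-early and AP-1 genes with a peak, 12 had a member (54.5%, 34.7 to 73.1), and of 16 histone genes 9 had one (56.3%, 33.2 to 76.9). Both intervals lay above 17.7%.

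**Figure D5:**
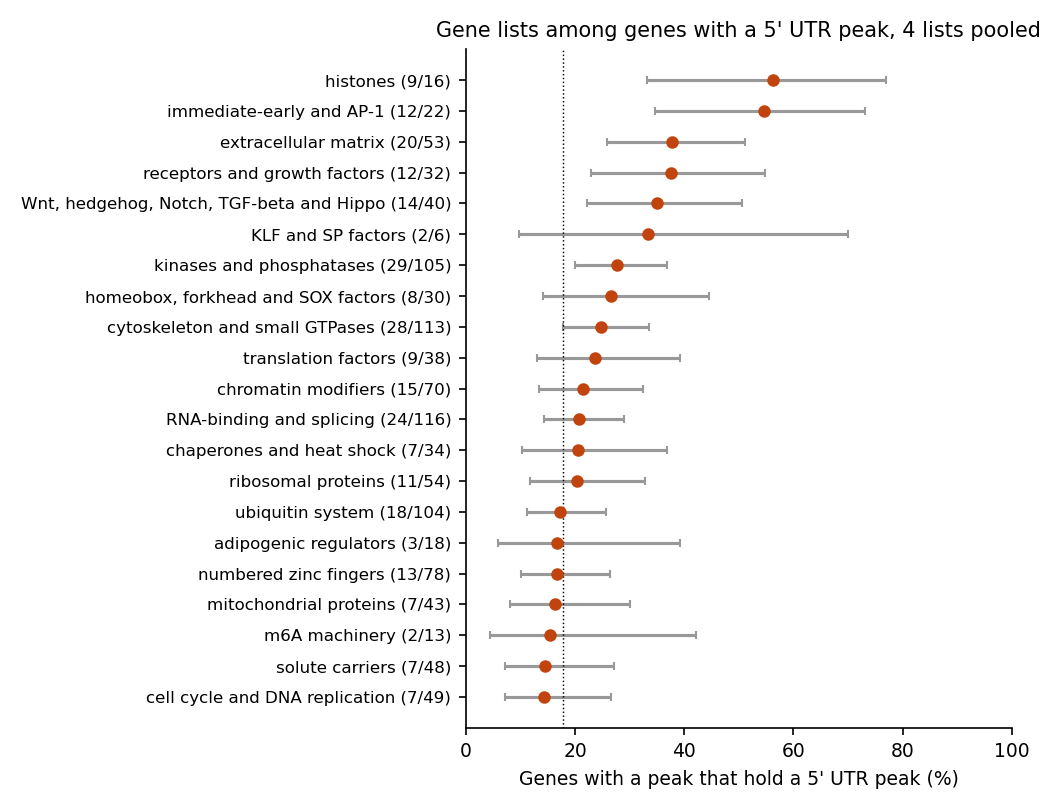
Share of the genes with a peak that hold a 5′ UTR peak in any of the 4 lists (horizontal axis, percent), for 21 gene lists, with 95% Wilson intervals and the counts beside each name. The dotted line marks the 17.7% of all genes with a peak, and histones (9 of 16) and immediate-early genes (12 of 22) lie farthest to its right.

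The immediate-early genes, switched on within hours of a hormone or serum stimulus, are given first by list. All 12 had one in DMSO MCE, where 21 of the list had a peak of any part and where 15.8% of all genes with a peak had a member. In DMSO Pre 2 of 11 had one (all genes 10.8%), in DMSO Diff 5 of 14 (12.4%) and in Rhein MCE 5 of 18 (14.6%). Besides Junb they were Btg1, Fosl2, Dusp1, Jund, Jun, Nr4a1, Fosl1, Zfp36l1, Dusp4, Zfp36 and Dusp6, which encode subunits of AP-1, an orphan nuclear receptor, phosphatases of MAP kinases, proteins that destabilise mRNA and an antiproliferative factor. Fosl2 had 2 regions, and the farther from the start scored 12.2 in DMSO MCE, 6.15 for DMSO Diff and 41.6 for Rhein MCE. Dusp1, the phosphatase MKP-1, had a member in all 4 lists, with scores of 5.31, 18.0, 8.68 and 12.4. Btg1 reached 26.0 in DMSO MCE.

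Histone genes had a member in 9 of 14 in DMSO MCE, 1 of 5 in DMSO Pre, 3 of 5 for DMSO Diff and 2 of 12 for Rhein MCE. Hist1h1d, listed as H1f3, scored 29.4 in DMSO MCE, against 4.95 and 4.31 in DMSO Pre and DMSO Diff. H2afy, which encodes macroH2A1, scored 6.67 in DMSO MCE and 23.1 in Rhein MCE, and H3f3b, a gene of histone H3.3, 14.7 in DMSO MCE and 5.37 in DMSO Diff. Replication-dependent histone genes have near-identical copies, so their assignment is uncertain.

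Signalling and matrix genes came next. Members lay in 20 of 53 extracellular matrix genes (37.7%, 25.9 to 51.2), 12 of 32 genes of growth factors, their receptors and insulin signalling (37.5%, 22.9 to 54.7) and 14 of 40 genes of the Wnt, hedgehog, Notch, TGF-beta and Hippo pathways (35.0%, 22.1 to 50.5). Kinases and phosphatases had 29 of 105 (27.6%, 20.0 to 36.8). These intervals also lay above 17.7%. The growth factor count takes in Igf2bp2, which is also counted under the m6A machinery below. Fgfr1, the main FGF receptor of fibroblasts, scored 8.07, 21.2, 6.75 and 53.4 over the 4 lists, and Vegfa, the endothelial growth factor, had 2 regions of 27.5 and 27.9 in DMSO MCE that were 1 peak with a score of 10.9 in Rhein MCE. Lgr4, a receptor that enhances Wnt signalling, scored 15.2 in DMSO MCE and 21.8 in Rhein MCE. Met, the receptor of hepatocyte growth factor, had members in DMSO Pre (best score 22.2) and DMSO Diff (4.57).

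Cytoskeleton genes and small GTPases had 28 of 113 (24.8%, 17.7 to 33.5), led by Arhgef17, with a lower bound at the background itself. The intervals of the remaining lists held 17.7%. Homeobox, forkhead and SOX factors 8 of 30, translation factors 9 of 38 and KLF and SP factors 2 of 6. Chromatin modifiers had 15 of 70, RNA-binding and splicing genes 24 of 116, chaperones 7 of 34, the proteoglycan Hspg2 counted among them by its name, ribosomal proteins 11 of 54 and the ubiquitin system 18 of 104. Numbered zinc fingers had 13 of 78, mitochondrial proteins 7 of 43, solute carriers 7 of 48 and cell cycle and replication genes 7 of 49. By list, the cell cycle and replication genes had 7 of 42 in DMSO MCE (all genes 15.8%) and 5 of 23 in Rhein MCE (14.6%). They had 2 of 24 in DMSO Pre (10.8%) and 1 of 16 in DMSO Diff (12.4%). Cdc42ep1 and Cdc42ep2, effectors of the GTPase CDC42, are counted in the cell cycle list by name and in the cytoskeleton list as well. Zfp36 and Zfp36l1 are counted both as numbered zinc fingers and as immediate-early genes. Dusp1, Dusp4 and Dusp6 are counted as immediate-early genes and as kinases and phosphatases, so the shares of those lists are not separate results. Prrx1, a homeobox factor of mesenchymal cells, was listed in all 4 lists with scores of 4.33, 7.56, 5.41 and 28.8. Dnajb4, a co-chaperone of the heat shock list, scored 14.8 in DMSO MCE, 17.5 for DMSO Diff and 21.8 for Rhein MCE.

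Adipogenic regulators had a member in 3 of 18 genes with a peak. These were Cebpb, Foxc1, with 2 regions of 44.4 and 28.7 in Rhein MCE and no DMSO member, and Nfib, with 7.37 in DMSO Pre. Genes of the m6A machinery had 2 of 13. The demethylase gene Alkbh5 had a member in DMSO MCE (score 6.96), and Igf2bp2, a reader of the mark, had one in each DMSO list (8.73, 9.37 and 7.97 in DMSO Pre, DMSO MCE and DMSO Diff) and none in Rhein MCE. Of the genes H1f0, Chpf, Zfp50, Rpl36 and Reep3, H1f0 alone had a member on its own strand. Chpf had peaks of other parts only, and Zfp50, Rpl36 and Reep3 had no peak in the 4 lists.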

How the data were processed

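The 10 MeRIP-seq libraries of 3T3-L1 cells are 5 IP and 5 input libraries, 1 of each kind for every condition in the labels. Per the study's methods, the authors trimmed reads with Trim Galore 0.6.5, aligned them to mm10 with HISAT2 2.1.0, removed duplicates with Picard 2.23.5 and reads of mapping quality below 30 with SAMtools 1.9, and then ran exomePeak2 with its defaults and ChIPseeker 1.26 for the annotation (versions from the methods and the submitters' processing notes). Which IP and input entered each call is not given in the sources used here. The deposited value of a peak is headed log2 fold change, but its values ran from 4.19 to 735 in the 4 lists. The authors' column was therefore treated as a score and used for ranks within a list. Raw scores are quoted as listed, without scaling between lists. For 1 alternative the column was read as an adjusted p-value on a minus log2 scale, where a score above 9.97 stands for an adjusted p below 0.001. The nearest-gene columns of the authors were used only for the listed annotation and symbol.

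Each peak was placed on GENCODE M21 (GRCm38), on the longest coding, otherwise the longest, transcript of its strand with both ends in exons. Of all peaks in a list, 99.2% to 99.4% named a transcript in this annotation, and the exonic length of placed members was a multiple of 25, the step of the caller, in 95.1% to 98.1%. Distances are exonic bases to the edge nearest the transcript start, where 0 is the first base. Motif and GC windows were 100 bases around the midpoint, on the transcript strand, from the RefSeq copy of GRCm38. Recurrence required at least 1 base of the genomic span on the same strand. The gene is the one that holds the peak on its strand. Differences in the score of shared peaks are percentiles of the first list minus the second.

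Named genes were the 12 of best median rank among regions in all 4 lists, the 5 highest members of each list, the 5 highest under rhein without a DMSO peak, the 5 of highest score in the 3 DMSO lists without a rhein peak, up to 4 genes for each of the 22 gene lists, and a few further genes, of which 1 is not reported here. Itpripl2, Fth1, Gm49544, Foxc1 as a second region and the full immediate-early list were named after their values were seen. The members and gene lists were chosen with earlier results of these data known. No replicate test was possible and no p-value is given. Alternatives covered the definition of a member, the score threshold, list length, overlap rule, transcript choice, window and gene symbol. Computation used Python 3.11.15, SciPy 1.17.1, NumPy 2.4.6, pysam 0.24.0, pandas 2.3.3, networkx 3.6.1, Matplotlib 3.10.9 and SAMtools 1.23.1. Placement, distance and overlap searches were tested on simulated peaks placed on real transcripts.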

Additional observations from a re-analysis of the deposited data

Results flagged for a closer look

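For 3 measures of the 5′ UTR peaks, rhein lay below DMSO at 1 stage and above it at the other. The number of such peaks with rhein minus that with DMSO was -216 at the MCE stage (321 against 537) and 70 at the differentiation stage (320 against 250). The number of genes holding one differed by -201 at the MCE stage (276 against 477) and 58 at the differentiation stage (276 against 218). The share of all peaks differed by -0.0125 percentage points at the MCE stage, which is within counting error, and 1.93 at the differentiation stage. The difference between stages was not tested, since each condition has 1 IP and 1 input. The rhein lists of both stages are nearly the same list, so the sign follows the DMSO list it is set against.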

How the results depend on the processing

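Of 68 values recomputed for the main results, 40 moved by less than their interval and 28 by more. Members with the midpoint in the 5′ UTR of a coding transcript made up 5.50%, 7.28%, 5.995% and 7.55% of the DMSO Pre, DMSO MCE, DMSO Diff and Rhein MCE lists, and members with a 5′ UTR on their own strand 9.38% in Rhein MCE. Above a score standing for an adjusted p below 0.001 the shares spread to 5.27%, 13.3%, 6.36% and 18.4%, and at equal list length DMSO MCE had 12.1%. At that score, where fewer peaks remain, recurrence fell to 37.5% of DMSO Pre members under a DMSO MCE peak and, of Rhein MCE members, to 43.4% under a DMSO MCE and 14.5% under a DMSO Diff peak, and at equal list length DMSO MCE members in DMSO Diff came to 27.3%. With the transcript named in the list, the median distance to the start was 117, 75.5, 106.5 and 110 bases in the order of the lists, and to the nearest annotated start 174, 97.0 and 128.5 bases in the 3 DMSO lists. GGAC occurred in 74.9%, 78.8%, 74.4% and 80.4% of 200-base windows and in 54.7% of whole DMSO Diff and 64.3% of whole Rhein MCE peaks. The median percentile of Rhein MCE members with the midpoint in the 5′ UTR was 82.3, an alternative added after seeing the data, and under it the medians of DMSO Pre (40.1) and DMSO Diff (37.5) changed places. Of 66 other values, 57 stayed within their interval. Recurrence also rose in places. DMSO MCE members under a Rhein MCE peak went from 36.3% to 61.7% (53.1 to 69.7) above a score of 9.97. At equal list length they came to 49.6%. Most of the rest that moved fell. No share of all peaks is given at these settings.

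Leaving out a replicate was not possible. No paired analysis was possible because each condition has 1 IP and 1 input and no replicate number. Read depth is unknown, and an absence of a peak is no absence of the mark.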
